A study of Mus musculus with 10 samples.

Results

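The genes described here are 10 regulators of the G1 phase of the cell cycle, namely the D-type cyclins Ccnd1, Ccnd2 and Ccnd3, their kinases Cdk4 and Cdk6, the inhibitors Cdkn1a, Cdkn1b, Cdkn1c and Cdkn2b, and the retinoblastoma gene Rb1. They were chosen by name, and each was read from the brightest of its probe sets that carry its symbol alone. This gave 9 of the 10 genes, out of 15815 genes tested. Cdkn1a was not analysed, since its probe set carries a second symbol. Among the 9, Cdkn1b had 2 probe sets and the others 1 each.

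Total RNA came from mammary epithelial cells of virgin female mice aged 8 to 12 weeks, with control and Pygo2 SSKO littermates sharing a cage. Cells positive for the endothelial, leukocyte and erythroid antigens CD31, CD45 and TER119 were gated out, and the rest were sorted with CD29, CD24 and CD61. The groups were the CD29-high, CD24-positive basal population of Pygo2 SSKO mice (3 arrays), which the labels call MaSC/basal and which is known to hold mammary stem cells, the CD29-low, CD24-positive, CD61-negative mature luminal population of control mice (3 arrays), and the basal population of control mice (4 arrays). They are called SSKO basal, control luminal and control basal here. Pygo2-null is the word the title uses for the mutant cells. Neither the meaning of SSKO nor the allele, any Cre driver, the genotype of the controls or the number of animals behind an array is given in the labels. The titles call the arrays biological replicates, without saying whether each came from other animals. The p-values therefore measure the spread between these samples, which may in part be technical.

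D-type cyclins bind CDK4 and CDK6 when growth signals arrive, and the kinases then phosphorylate the retinoblastoma protein, which releases E2F transcription factors and opens the way to S phase. INK4 proteins such as the product of Cdkn2b (p15) block CDK4 and CDK6, whereas the Cip/Kip proteins p27 (Cdkn1b) and p57 (Cdkn1c) bind cyclin-CDK complexes more broadly. Cyclin D1 is needed for lobuloalveolar growth of the mouse mammary gland in pregnancy, and its gene is a known target of beta-catenin in several tissues. Pygo2 encodes a PHD-finger protein that takes part in beta-catenin-dependent transcription.

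Levels are given as log2(intensity + 16). Differences are between such levels, and the added 16 shrinks those of dim genes. The probe sets dropped as dim had a mean under 6.74, and all 9 genes lay above that level on all 10 arrays. Pygo2 itself read 6.99, 5.94 and 5.86 on SSKO basal arrays 1 to 3, against 8.30, 9.09, 8.11 and 8.91 on control basal arrays 1 to 4. Whether its probes lie in the deleted part was not stated. Basal and mature luminal markers separated the basal sorts from the luminal sort. In SSKO basal arrays the mean of 10 basal and myoepithelial markers was 12.58 to 12.78 and that of 9 mature luminal markers 10.39 to 10.74. The first mean was 7.38 to 9.53 in control luminal arrays, against 12.58 to 12.75 in control basal arrays, and the second was 13.11 to 13.24 in control luminal arrays, against 9.57 to 10.17 in control basal arrays. Markers of other cell types were present in the basal sorts, where the mean of 12 endothelial markers was 10.77, 8.09 and 9.76 on SSKO basal arrays 1 to 3, against 9.83, 8.25, 8.74 and 8.54 on control basal arrays 1 to 4. The mean of 8 fibroblast markers was 7.23 to 7.87 in control luminal arrays, against 10.14 to 11.50 in control basal arrays.

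Promoter windows were available in the RefSeq tables for 6 of the 10 genes, and 4 of them are shown because they belong to kinase or inhibitor genes with measured levels. Each gives the 250 bases before the annotated start, on build GRCm38.p6 and the strand of the gene (minus for Cdkn2b, plus for the others), with E-boxes (CACGTG, the site bound by MYC and related factors) and GC boxes (GGGCGG on either strand) in capitals. Cdk4 lies at chr10:127063285-127063534, Cdk6 at chr5:3343643-3343892, Cdkn1b at chr6:134920151-134920400 and Cdkn2b at chr4:89311033-89311282.
Cdk4: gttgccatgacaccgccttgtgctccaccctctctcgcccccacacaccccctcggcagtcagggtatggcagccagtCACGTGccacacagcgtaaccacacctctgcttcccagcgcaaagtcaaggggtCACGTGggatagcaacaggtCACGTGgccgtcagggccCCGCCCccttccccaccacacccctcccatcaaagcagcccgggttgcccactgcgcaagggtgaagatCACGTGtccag
Cdk6: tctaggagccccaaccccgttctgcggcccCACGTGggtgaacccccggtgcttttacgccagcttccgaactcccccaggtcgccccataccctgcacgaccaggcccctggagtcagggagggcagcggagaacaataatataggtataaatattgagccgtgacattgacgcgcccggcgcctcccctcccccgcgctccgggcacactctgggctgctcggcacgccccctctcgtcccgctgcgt
Cdkn1b: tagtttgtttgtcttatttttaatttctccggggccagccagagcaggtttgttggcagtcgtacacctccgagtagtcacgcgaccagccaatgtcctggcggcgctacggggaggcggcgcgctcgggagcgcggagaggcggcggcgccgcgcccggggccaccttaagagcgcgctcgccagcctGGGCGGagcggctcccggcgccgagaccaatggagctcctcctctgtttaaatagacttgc
Cdkn2b: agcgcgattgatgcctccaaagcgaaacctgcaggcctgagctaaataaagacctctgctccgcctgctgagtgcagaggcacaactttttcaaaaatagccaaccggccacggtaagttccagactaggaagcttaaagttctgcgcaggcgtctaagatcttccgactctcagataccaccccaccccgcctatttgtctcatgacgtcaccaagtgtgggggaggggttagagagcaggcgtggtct
The Cdk4 window holds 4 E-boxes, the first beginning 172 and the last 11 bases before the start. Of 32851 promoter windows of the same length, 6.02% held at least 1 E-box and 0.0213% held 4 or more. Cdk6 holds 1 E-box and no GC box, and Cdkn1b holds no E-box. Cdkn2b holds none of the motifs searched. Cdk4 and Cdkn1b hold 1 GC box each, a motif found in 32.7% of all windows. An E2F motif (TTTGGCGC or TTTCCCGC, either strand, in 1.3% of windows) and a STAT motif (TTCNNNGAA, in 7.02%) were also searched and were not found in these 4 windows. None of the motif matches overlapped each other. The matches are a description of sequence only.

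The comparison of control luminal with control basal cells asked how the G1 machinery differs between the mature luminal and basal compartments. The D-type cyclins went opposite ways. Ccnd2 was 10.6-fold lower in control luminal than in control basal cells, while Ccnd1 and Ccnd3 were higher. Among the kinases, Cdk6 was lower and Cdk4 did not pass the test. Rb1 and the inhibitor Cdkn1b were higher, the inhibitor Cdkn1c was lower, and Cdkn2b did not pass. In limma's test 7 of the 9 genes passed at an adjusted p under 0.05, 4 higher and 3 lower. That comparison called 44.3% of all genes tested (24.6% higher and 19.7% lower). The median difference of the 9 genes was 0.29, and over all genes it was 0.067. In sorted bulk RNA, fewer cells of a type and less RNA per cell cannot be told apart.

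Ccnd2, the D cyclin induced by several growth factor and hormone signals, had levels of 7.80, 7.21 and 9.55 on control luminal arrays 1 to 3, against 12.24, 11.48, 11.25 and 11.40 on control basal arrays 1 to 4. All luminal arrays lay below all basal arrays, and luminal array 3 stood above the other luminal arrays. Control luminal and control basal arrays did not overlap for 46.3% of all genes. The luminal mean was 8.19 ± 1.22 (SD, n = 3) and the control basal mean 11.59 ± 0.44 (SD, n = 4). The difference was -3.40 (SE 0.45, limma adjusted p = 9.15e-05), and Ccnd2 was the only one of the 9 genes whose call held in all 20 alternatives tried. The luminal arrays were ordered in the same way by their basal and myoepithelial markers. The mean of all 10 such markers was 7.94, 7.38 and 9.53 on luminal arrays 1 to 3. Each of the 10 markers was highest on luminal array 3. The part of this in the Ccnd2 level of luminal array 3 was not tested. Without that array the Ccnd2 difference was -4.09 (adjusted p = 1.16e-06).

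**Figure D1:**
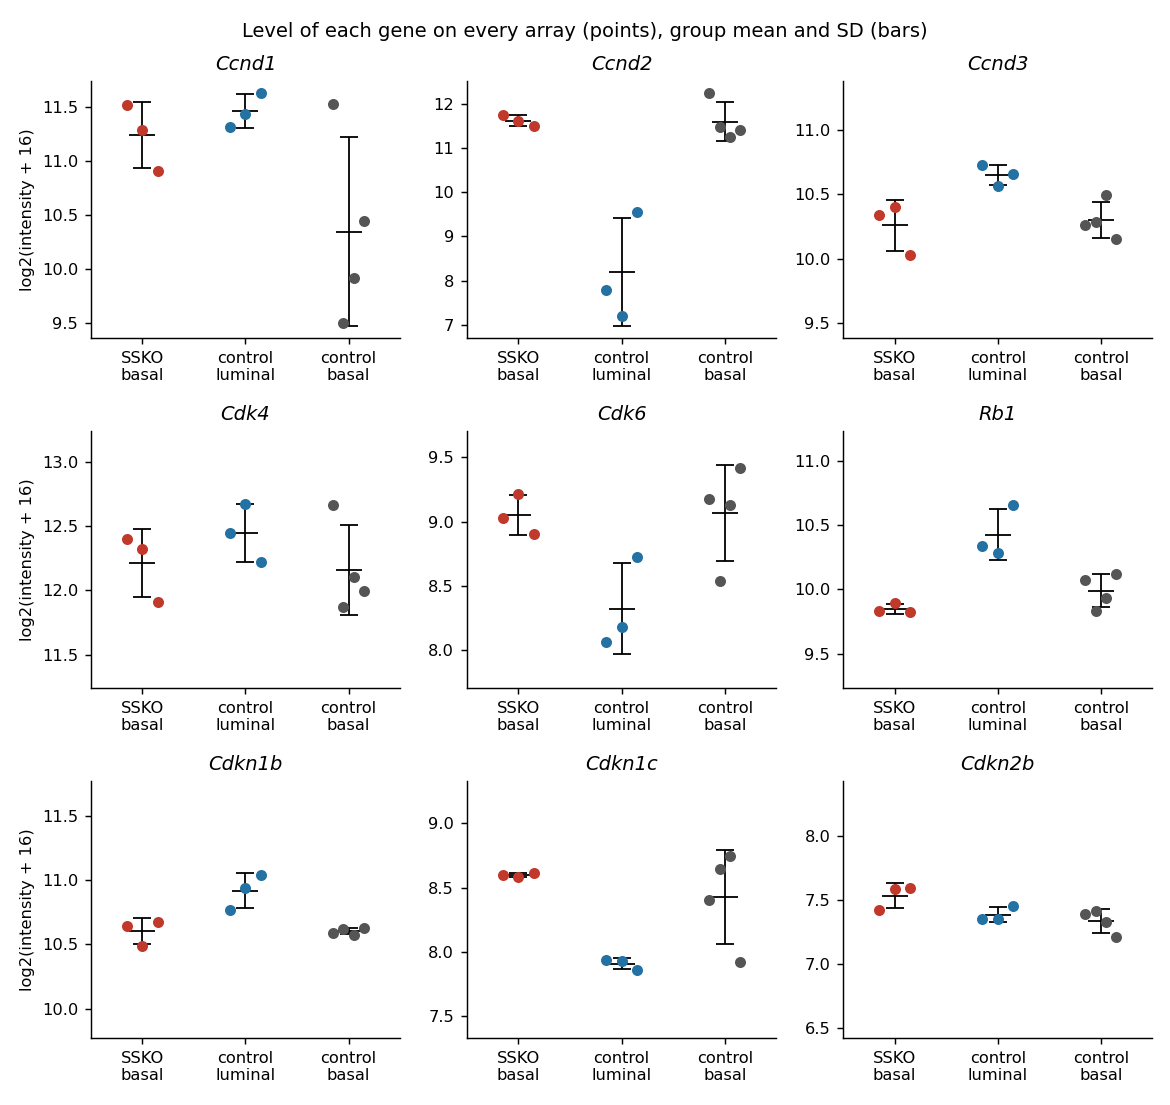
Level of each of the 9 genes on every array as log2(intensity + 16), with SSKO basal (3 arrays), control luminal (3) and control basal (4) from left to right. Points are arrays and bars show the group mean and SD. The luminal points of Ccnd2 lie at 7.21 to 9.55, below all basal points, and the control basal points of Ccnd1 spread between 9.50 and 11.53.

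Ccnd1 encodes cyclin D1. Its levels were 11.32, 11.44 and 11.63 on control luminal arrays 1 to 3, against 11.53, 9.50, 9.92 and 10.44 on control basal arrays 1 to 4. Control basal array 1 lay among the luminal arrays and the other 3 control basal arrays lay below them, so the groups overlapped. Ccnd1 averaged 11.46 ± 0.16 (SD, n = 3) in luminal and 10.35 ± 0.88 (SD, n = 4) in control basal cells, 2.16-fold apart (difference 1.11, SE 0.38, limma adjusted p = 0.0334). The call ended in 6 of the 7 fits without 1 array, and it held in 13 of 20 alternatives in all. The adjusted p was 0.0628, 0.0755 and 0.0934 without luminal arrays 1, 2 and 3, and 0.0788, 0.0859 and 0.0519 without control basal arrays 2, 3 and 4. Without control basal array 1 the difference was 1.51 (adjusted p = 0.000492).

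Ccnd3, which encodes the third D cyclin, had levels of 10.73, 10.57 and 10.66 on luminal arrays, against 10.26, 10.28, 10.49 and 10.16 on control basal arrays. The groups did not overlap, as for 46.3% of all genes in this comparison. The difference was 0.35 (SE 0.13, limma adjusted p = 0.0470), a change of 1.28-fold that lay close to the threshold. The adjusted p was 0.147, 0.0696 and 0.0943 without luminal arrays 1, 2 and 3, and 0.0820, 0.0762 and 0.113 without control basal arrays 1, 2 and 4. The call also ended with a pseudocount of 1 (0.0513), without a filter on dim probe sets (0.0570) and after quantile normalization (0.0960), and it held in 7 of 20 alternatives in all.

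Of the kinase genes, Cdk6 read 8.06, 8.18 and 8.72 on control luminal arrays and 9.18, 8.54, 9.13 and 9.42 on control basal arrays. Luminal array 3 lay above control basal array 2, and the remaining arrays were separated. Its difference was -0.74 (SE 0.22, limma adjusted p = 0.0158), with adjusted p = 0.0751 without luminal array 1 and 0.0614 without luminal array 2. It was 0.0622 without the 3 basal arrays with the highest endothelial means, and the call held in 17 of 20 alternatives. Cdk4, the other cyclin D kinase gene, had levels of 12.44, 12.67 and 12.22 on luminal arrays, against 12.66, 11.87, 12.10 and 11.99 on control basal arrays. The groups overlapped, and the difference of 0.29 had a 95% interval from -0.16 to 0.73 (adjusted p = 0.300).

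Rb1, the substrate of both kinases and a brake on E2F, read 10.33, 10.29 and 10.65 on luminal arrays, against 10.07, 9.83, 9.94 and 10.12 on control basal arrays. All luminal arrays lay above all control basal arrays, in a comparison where 46.3% of all genes did not overlap. The difference was 0.44 (SE 0.13, limma adjusted p = 0.0151), and the call ended without luminal array 3 (0.32, adjusted p = 0.0636) and in none of the other 19 alternatives.

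The inhibitors did not move in one direction. Cdkn1b levels were 10.77, 10.94 and 11.04 on luminal arrays, against 10.59, 10.62, 10.58 and 10.62 on control basal arrays. The control basal arrays lay within 0.05 of each other and below all luminal arrays. Such a lack of overlap, in either direction, was seen for 46.3% of all genes. The difference was 0.31 (SE 0.11, limma adjusted p = 0.0375), or 1.24-fold. A second, dimmer Cdkn1b probe set read 7.90, 7.89 and 7.92 on luminal arrays, against 7.52, 7.34, 7.31 and 7.53 on control basal arrays, again without overlap. The Cdkn1b call ended in 6 of the 7 fits without 1 array, with adjusted p = 0.106 and 0.123 without luminal arrays 2 and 3, and 0.0621, 0.0527, 0.0701 and 0.0623 without control basal arrays 1, 2, 3 and 4. It also ended after quantile normalization (0.0526), and it held in 9 of 20 alternatives in all.

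Cdkn1c, an imprinted gene, went the other way, with levels of 7.94, 7.93 and 7.86 on luminal arrays, against 8.40, 8.65, 8.75 and 7.93 on control basal arrays. Control basal array 4 read like the luminal arrays and the other 3 stood higher. The difference was -0.52 (SE 0.17, limma adjusted p = 0.0307). Without luminal arrays 1, 2 and 3 the adjusted p was 0.0704, 0.0695 and 0.0779, and without control basal arrays 2 and 3 it was 0.0741 and 0.0785. It was 0.0604 with only these 2 groups fitted, 0.0519 with the endothelial mean as a covariate and 0.0894 without the 3 basal arrays with the highest endothelial means, and the call held in 12 of 20 alternatives. Cdkn2b read 7.35, 7.35 and 7.45 on luminal arrays, against 7.39, 7.42, 7.33 and 7.21 on control basal arrays. The groups overlapped, and the difference of 0.049 had an interval from -0.19 to 0.29 (adjusted p = 0.765).

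Whether these genes differ in basal cells without Pygo2 was read from SSKO basal against control basal arrays. None of the 9 genes passed in limma's test over all genes. Ccnd1 alone had an unadjusted p under 0.05, a level reached by 3.03% of all genes. The test called 6 genes in all, or 0.0379%, of which 5 were higher (0.0316%) and 1 lower (0.00632%). After quantile normalization it called 3, all higher. The median difference of the 9 genes was 0.016, and over all genes it was 0.0078.

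Ccnd1 read 11.52, 11.28 and 10.91 on SSKO basal arrays 1 to 3, against 11.53, 9.50, 9.92 and 10.44 on control basal arrays 1 to 4. The SSKO arrays lay above control basal arrays 2, 3 and 4 and below control basal array 1. Ccnd1 averaged 11.24 ± 0.31 (SD, n = 3) in SSKO and 10.35 ± 0.88 (SD, n = 4) in control basal cells. The difference of 0.89 (1.85-fold) had a 95% interval from 0.054 to 1.73, an unadjusted p of 0.0391 and an adjusted p of 1.00 in limma's test. Without control basal array 1 it was 1.29 (unadjusted p = 0.000282, adjusted p = 0.298), and without control basal array 2 it was 0.61 (adjusted p = 0.978). No alternative brought it past the threshold.

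Control basal array 1, the highest of its group for Ccnd1, was also the highest of its group for endothelial markers (9.83, against 8.25, 8.74 and 8.54 on arrays 2 to 4). Among SSKO arrays, array 2 had the lowest endothelial mean of all basal arrays, 8.09, and a Ccnd1 level of 11.28 that exceeded control basal arrays 2 to 4. With the endothelial mean as a covariate the Ccnd1 difference was 0.64 (unadjusted p = 0.116). Glycam1, a gene of the milk and alveolar list, is named here after its values were seen. It read 16.18, 7.45 and 15.25 on SSKO basal arrays 1 to 3, against 14.16, 7.99, 7.56 and 7.70 on control basal arrays 1 to 4. The 3 basal arrays where Glycam1 was high were also the 3 with the highest endothelial means. The caseins Csn2 and Csn3 did not share the order of Glycam1. Between the group means, mature luminal markers also moved the same way as Ccnd1, with 8 of 9 differences positive and a median of 0.59, although 1 passed the test. Array by array within a group the order differed. The mature luminal mean was 9.57, 9.88, 9.88 and 10.17 on control basal arrays 1 to 4, lowest where Ccnd1 was highest. It was 10.53, 10.39 and 10.74 on SSKO arrays 1 to 3, highest where Ccnd1 was lowest. Beyond the fits given here, the part of these markers in the Ccnd1 difference was not tested. The 3 basal arrays with the highest endothelial means were SSKO arrays 1 and 3 and control basal array 1. With all 3 left out the Ccnd1 difference was 1.33 (unadjusted p = 0.00389, adjusted p = 1.00), with 1 SSKO array left that was assumed to vary like the other groups.

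**Figure D2:**
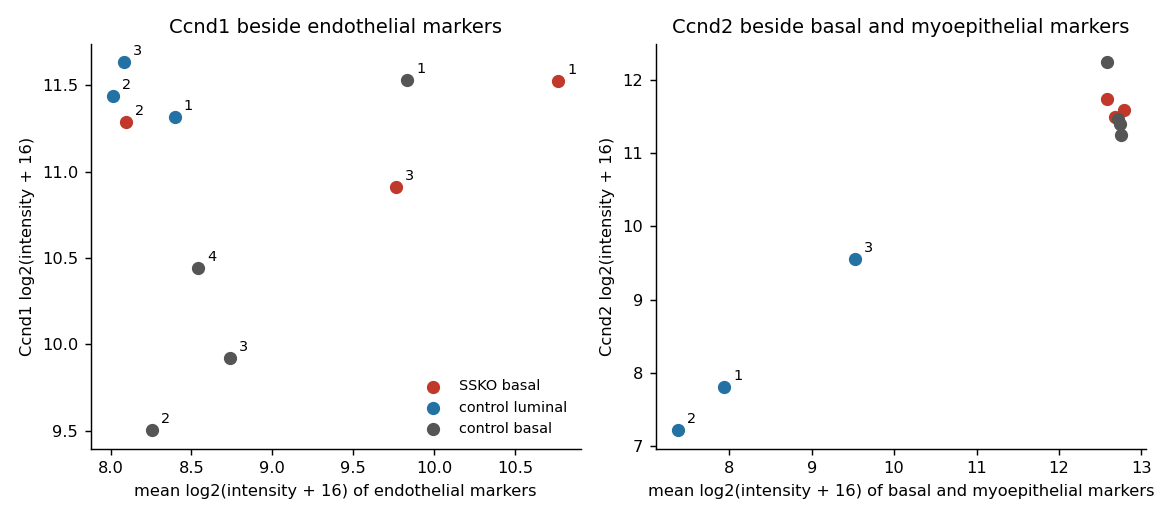
Ccnd1 against the mean of 12 endothelial markers (left) and Ccnd2 against the mean of 10 basal and myoepithelial markers (right), 1 point per array, both axes as log2(intensity + 16), with digits giving the array number (luminal arrays only on the right). Control basal array 1 is high on both axes on the left, while SSKO array 2 has a Ccnd1 level of 11.28 at an endothelial mean of 8.09, and luminal array 3 stands above the other luminal arrays on both axes on the right.

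The other D cyclins and the kinases had differences within 0.1 of 0. Ccnd2 read 11.74, 11.60 and 11.49 on SSKO basal arrays, within the control basal range of 11.25 to 12.24, and differed by 0.016 with an interval from -0.97 to 1.00. This width reflects the pooled spread, to which the luminal arrays contribute. With only the 2 basal groups fitted, the SE of the Ccnd2 difference was 0.23, against 0.45 in the main fit. Ccnd3 read 10.34, 10.40 and 10.03 in SSKO against 10.16 to 10.49 in control basal cells (difference -0.041, interval -0.33 to 0.25). Cdk4 read 12.40, 12.32 and 11.91 in SSKO against 11.87 to 12.66 in control basal cells (0.054, interval -0.39 to 0.50). Cdk6 read 9.03, 9.22 and 8.91 in SSKO against 8.54 to 9.42 in control basal cells (-0.013, interval -0.49 to 0.46). The intervals exclude a change of 1 log2 unit for Ccnd3, Cdk4 and Cdk6, while for Ccnd2 the upper bound lies at that size.

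Rb1 read 9.83, 9.89 and 9.82 on SSKO arrays, near the lower end of the control basal range of 9.83 to 10.12, and differed by -0.14 (interval -0.42 to 0.13). Cdkn1b read 10.64, 10.48 and 10.67 in SSKO against 10.58 to 10.62 in control basal cells, with a difference of -0.0017 and an interval from -0.24 to 0.24. Cdkn1c was nearly constant in SSKO cells, at 8.60, 8.58 and 8.62, against 7.93 to 8.75 in control basal cells (0.17, interval -0.22 to 0.55). Its difference was 0.000546 without control basal array 4. Cdkn2b read 7.42, 7.59 and 7.60 on SSKO arrays, against 7.39, 7.42, 7.33 and 7.21 on control basal arrays. It was the only one of the 9 genes whose SSKO and control basal arrays did not overlap, as in 4.46% of all genes tested, and the lowest SSKO value exceeded the highest control value by under 0.01. Its difference was 0.20 (SE 0.11, interval -0.040 to 0.43, unadjusted p = 0.0950, adjusted p = 1.00).

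**Figure D3:**
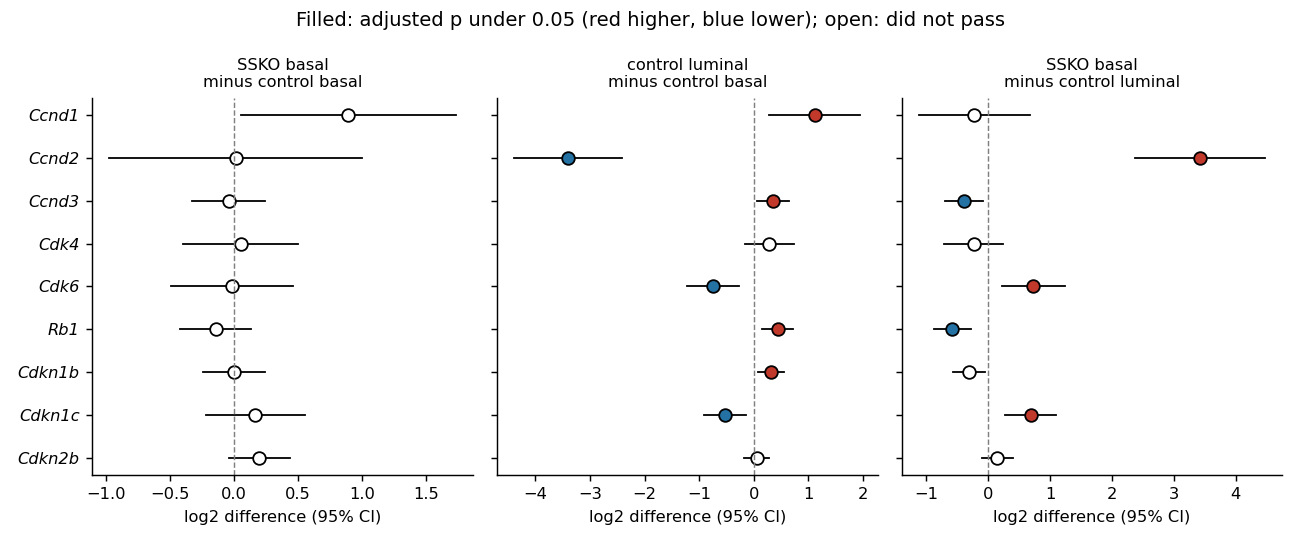
Differences in log2(intensity + 16) with 95% confidence intervals from limma's fit to all 10 arrays, 1 panel per comparison, each with its own axis scale. Filled points passed at an adjusted p under 0.05 (red higher, blue lower) and open points did not. All points of SSKO against control basal cells are open, and Ccnd2 lies at -3.40 for control luminal against control basal cells and at 3.42 for SSKO basal against control luminal cells.

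Set against control luminal cells, SSKO basal cells showed 5 of the 9 genes past the threshold, 3 higher and 2 lower, in a comparison that called 42.3% of all genes (19% higher and 23.3% lower). Ccnd2 was higher by 3.42 (SE 0.48, limma adjusted p = 0.000165), Cdk6 by 0.73 (SE 0.23, 0.0254) and Cdkn1c by 0.69 (SE 0.19, 0.0113). Rb1 was lower, with a difference of -0.58 (SE 0.13, 0.00487), and so was Ccnd3, with -0.39 (SE 0.14, 0.0410). In each of these 5 genes the SSKO and luminal arrays did not overlap, as for 54.4% of all genes. Cdkn1b, at -0.31, had an adjusted p of 0.0505. Ccnd1 differed by -0.22 with an interval from -1.12 to 0.67 (adjusted p = 0.718), so the order of its group means was control luminal, SSKO basal and control basal, and the 2 highest did not differ beyond their spread. The 3 comparisons share arrays and are not independent of each other.

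Of those calls, Ccnd2, Cdkn1c and Rb1 held in all 6 fits without 1 array of the compared groups, while Cdkn1c (0.160) and Rb1 (0.122) did not pass without the 3 basal arrays with the highest endothelial means. The Cdk6 call ended without SSKO arrays 1 and 2 (adjusted p = 0.0570 and 0.0859) and without luminal arrays 1 and 2 (0.0994 and 0.0822). The Ccnd3 call ended without SSKO arrays 1 and 3 (0.0610 and 0.171) and without luminal arrays 1, 2 and 3 (0.123, 0.0612 and 0.0813). Over all alternatives the Cdk6 call held in 12 of 19 and the Ccnd3 call in 10 of 19. Cdkn1b passed in 7 of 19, and its adjusted p over all 19 lay between 0.0214 and 0.179.

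The wider G1 network was read from 7 further lists with 86 genes, of which 83 were tested. In control luminal against control basal cells 35 of them passed (42.2%), 19 higher and 16 lower, close to the 44.3% of all genes. In SSKO against control basal cells none of the 83 passed in limma's test and none had an unadjusted p under 0.05. The counts by list below are from the luminal comparison. They are to be read beside the shares of all genes called there, 24.6% higher and 19.7% lower. No list was tested as a set.

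Of 4 other inhibitor genes, none passed in the luminal comparison. The INK4 gene Cdkn2d differed by 0.13, and Cdkn2a, which also encodes p19ARF in mice, by 0.040. Of 9 genes of the cyclin E, cyclin A and CDK2 module, 1 was higher and 2 were lower. Ccne1, the cyclin that drives CDK2 at the G1/S boundary, averaged 7.70 in luminal and 9.31 in control basal cells (difference -1.61, SE 0.18, limma adjusted p = 2.16e-05). Cdc25a, a phosphatase that activates CDK2, differed by -0.62, and Mnat1, a subunit of the CDK-activating kinase, by 1.01. Of 12 pocket protein, E2F and DP genes, 3 were lower and 0 higher. They were the E2F partner Tfdp2 (-0.83) and the repressive E2F genes E2f7 (-0.81) and E2f6 (-0.78).

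Of 11 genes for ubiquitin control of G1 regulators, 5 were higher and 2 lower in luminal cells. Fbxo31, an F-box protein reported to direct cyclin D1 degradation after DNA damage, averaged 10.13 in luminal and 8.56 in control basal cells (difference 1.57, SE 0.12, limma adjusted p = 1.38e-06). Rnf123, a subunit of a ligase for p27, differed by 0.61. Skp2, the F-box protein that marks p27 in the nucleus, differed by -0.75, and Fbxw7, which marks cyclin E, by -0.84. Of 12 tested genes for p53 regulation and p53 targets, 7 were higher and 3 lower, with Trp53inp1 at 2.97 and Zmat3 at 1.43 above 0, and Phlda3 at -3.77 and Sesn2 at -2.59 below it.

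Of 16 genes in the list named upstream inducers of G1 cyclins, 4 were higher and 5 lower. The list also holds Foxo1, Foxo3, Gsk3b, Smad3 and Smad4, named here after their values were seen. These are regulators that need not induce the cyclins, so the counts are not counts of inducers alone. Foxo1 was among the 5 lower genes, with a difference of -0.84. Stat5a and Stat5b, transducers of prolactin signalling, differed by 1.75 and 1.67. Id1, a dominant-negative helix-loop-helix factor, differed by -1.79, and Mycn by -1.24, with a luminal mean of 6.70 that lay under the dim level, so its full size is not known. Myc, an inducer of several G1 genes, averaged 11.95 in luminal and 12.64 in control basal cells (difference -0.69, SE 0.17, limma adjusted p = 0.00743), and is named here after its value was seen. Of 19 tested S and M phase genes, 2 were higher and 1 lower. Pcna, the sliding clamp of DNA polymerase, differed by -0.86, the mitotic kinase Aurka by 0.53 and the replicative helicase subunit Mcm6 by 0.87. The median of this list was 0.037. Mki67, a common proliferation marker that is named here after its value was seen, averaged 8.96 in luminal and 9.03 in control basal cells and differed by -0.076 (SE 0.88).

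**Figure D4:**
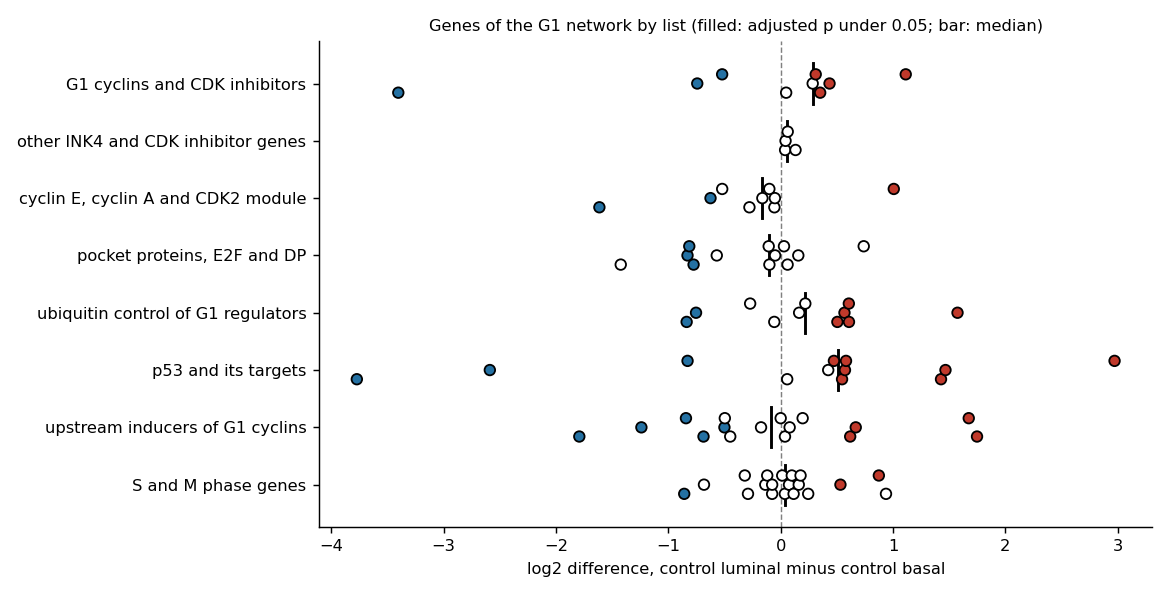
Differences in log2(intensity + 16) between control luminal and control basal cells for the tested genes of 8 lists, 1 point per gene, with a bar at each list's median. Filled points passed at an adjusted p under 0.05 (red higher, blue lower) and open points did not. Points of most lists lie on both sides of 0, with medians from -0.16 to 0.51, and Ccnd2 is the leftmost point of the G1 cyclin and CDK inhibitor list.

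For the 7 genes called in the luminal comparison, the 3 tested genes with the nearest pattern over the 10 arrays were found by the root mean square difference of log2 values centred on each gene's mean. For Ccnd2 they were Lbh (0.29), Epha4 (0.30) and Emb (0.30), with luminal minus control basal differences of -3.23, -3.19 and -3.68. For Ccnd1 they were Pcgf1 (0.30), Ndufaf6 (0.33) and Prpf31 (0.33), and for Cdk6 they were Car9, Ubn1 and Uba6 (0.14 to 0.16). The nearest genes were Tmem127, Rab24 and Anapc2 for Ccnd3, Taf8, Xpo7 and Slc35e2 for Rb1, and Eaf2, Zfp597 and Cd2ap for Cdkn1b, at 0.059 to 0.083. For Cdkn1c they were Crybb3, Syt1 and Kctd7, at 0.13 to 0.14. These distances grow with the size of a gene's change and are not compared between the 7 genes.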

How the data were processed

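Total RNA of 10 sorted cell samples was measured on Affymetrix arrays, 1 per sample. The deposited table gives 1 intensity per probe set on a linear scale, and PLIER 2.0 and Affymetrix Expression Console 1.1 are named, without their roles, per the submitters' processing notes. The sources used here do not state whether arrays were normalized to each other. Array medians lay between 205 and 228. The number of arrays limits the precision. The table has no detection calls or batch labels.

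Of 28815 probe sets, 21780 had 1 gene symbol, 1605 several and 5430 none, by a platform annotation updated through gene IDs. The 25% with the lowest mean log2(intensity + 16) were dropped, and each gene kept its brightest probe set. limma 3.58.1 (R 4.3.3; lmFit, eBayes) fitted 3 group means to all 10 arrays (7 residual degrees of freedom), with two-sided tests adjusted by Benjamini-Hochberg over 15815 genes. The fit was tested on simulated data with independent noise for each gene and array. These data held no effects shared by the genes of an array. Members, lists and motifs were chosen with earlier results of these data, or the sequences, known. Named were all members, from each other list the genes of smallest p in the luminal comparison (up to 4 called, or 2 where none was), every list gene called in SSKO basal cells, the 3 nearest genes by pattern, and the 2 markers of each other cell type with the highest mean over basal arrays. Genes named after their values were seen are marked so. Alternatives were other pseudocounts, filters, scalings, probe set rules and variance models, a replicate block, an endothelial covariate and left-out arrays. Figures used matplotlib 3.10.9 in Python 3.11.15.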

Additional observations from a re-analysis of the deposited data

How the results depend on the processing

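In SSKO against control basal cells, 0 of the 9 genes passed under any alternative, and 150 of 179 alternative values kept their sign. The 29 that turned belonged to 5 genes near 0. Ccnd2 (0.016) became -0.0051 after quantile normalization, -0.030 with arrays centred on their medians, -0.048 with the replicate block and -0.11 with the endothelial covariate, and ranged from -0.099 to 0.23 without 1 array. Ccnd3 (-0.041) became 0.092 without the 3 endothelial-bright arrays (-0.11 to 0.073 without 1 array). Cdk4 (0.054) became -0.000828 with the replicate block and -0.043 with the covariate (-0.042 to 0.22). Cdk6 (-0.013) became 0.10 with the block and 0.19 without the bright arrays (-0.19 to 0.10). Cdkn1b (-0.0017) became 0.0090 after quantile normalization, 0.0057 with the block and 0.064 with both probe sets averaged (-0.038 to 0.056). The cause was not tested. The count of all genes called there was 6, against 3 after quantile normalization, 0 (214 at an unadjusted p under 0.05) without the bright arrays, and 1 to 27 without 1 array (1 without SSKO array 3, 2 without control basal array 2 and 27 without SSKO array 2).

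In control luminal against control basal cells all 179 values kept their sign. The count of all genes called there was 7001 of 15815 in the main fit. It was 6543 when only these 2 groups were fitted, 6962 with the replicate block and 5983 to 7023 without 1 array. The counts of the 9 genes are to be read beside these. The count of 7 genes called was 3 when only these 2 groups were fitted and 3 without the bright arrays, which leave fewer samples, and ranged from 2 to 5 without 1 array. In SSKO basal against control luminal cells it was 5, against 3 with the covariate, 1 without the bright arrays and 3 to 4 without 1 array, and the count of all genes was 6682, against 4031 without the bright arrays. Without 1 array the count of all genes in SSKO basal against control luminal cells was 5631 to 6328. Cdkn2b could not be tested under the stricter filter on dim probe sets, which drops it. Replicate numbers are shared between groups, but the labels do not say that they pair samples. Deviations of same-numbered SSKO and control basal arrays correlated at 0.63, 0.46 and 0.05, and SSKO array 3 correlated most with control basal array 4 (0.43). With the replicate block 0 of the 9 genes passed in SSKO against control basal cells, 5 in control luminal against control basal cells and 4 in SSKO basal against control luminal cells. The deposited values hold no background estimate, so how far a dim probe set lies above background is not known here.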

Other observations

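Beside the G1 genes, the sorted populations differed in markers of some other cell types. Limma's test of control luminal against control basal cells called 24.6% of all genes higher and 19.7% lower. The luminal progenitor, pericyte, immune, adipocyte and erythroid lists are too short to set apart from these shares. Luminal progenitor markers averaged 9.24 to 9.72 in control luminal arrays, against 7.70 to 8.20 in control basal arrays. In limma's test 4 of 6 were higher and 1 lower. The lower 1 was Itgb3, the gene of CD61, for which the luminal cells were sorted as negative. It read 6.37 to 6.96 in control luminal and 8.59 to 9.65 in control basal arrays. Aldh1a3 read 9.64 to 12.04 in control luminal and 7.76 to 8.32 in control basal arrays. Of 8 fibroblast markers all 8 were lower in control luminal cells. Dcn, a collagen-binding proteoglycan, read 12.46, 11.43 and 9.03 on control luminal arrays, against 12.62 to 13.11 in control basal arrays, and Col1a2, a type I collagen chain, read 7.30 to 7.83 in control luminal and 10.46 to 12.50 in control basal arrays. Of 7 pericyte markers 1 was higher and 5 were lower, with Pdgfrb at 6.65 to 6.89 in control luminal and 9.48 to 10.70 in control basal arrays, and Rgs5 at 7.79 to 8.52 in control luminal and 8.87 to 10.22 in control basal arrays. Of 12 endothelial markers 1 was higher and 1 lower. The higher 1 was Vwf, named here after its value was seen. Its difference was 1.43, and it was the only endothelial marker with a positive difference. Of 6 tested immune markers 2 were lower. Cd74, the MHC class II invariant chain, read 6.29 to 6.77 in control luminal and 8.28 to 10.39 in control basal arrays, while Cd3e overlapped between them. Of 4 adipocyte markers 1 was lower, with Fabp4 at 7.80 to 8.78 in control luminal and 9.14 to 11.00 in control basal arrays, and Plin1 overlapping. The 1 erythroid marker tested, Alas2, was higher, at 7.28 to 7.31 in control luminal and 6.67 to 6.91 in control basal arrays.

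In SSKO against control basal cells none of these other-cell lists had a gene that passed, although 11 of 12 endothelial markers had a positive difference. Eng, an endothelial coreceptor for TGF-beta family ligands, read 11.74, 10.58 and 11.03 on SSKO arrays, against 10.10 to 10.88 on control basal arrays. Cdh5, the cadherin of endothelial junctions, read 11.88, 9.01 and 11.69 on SSKO arrays, against 8.90 to 11.03 on control basal arrays. SSKO array 2 lay within the control range for both genes. Of 9 tested mature luminal markers 8 had a positive difference, with a median of 0.59, and 5 lay above all control basal arrays in all SSKO arrays (Krt19, Cited1, Foxa1, Cldn3 and Cldn4). Over all genes tested the 2 groups did not overlap, in either direction, for 4.46%. The test called 1 of them, Cited1, a transcriptional coregulator of hormone-responsive luminal cells, named here after its value was seen. It read 9.97, 9.43 and 9.56 on SSKO arrays, against 8.25, 7.97, 7.96 and 8.22 on control basal arrays (difference 1.56, SE 0.18, limma adjusted p = 0.0103).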
